A study of Mus musculus with 62 samples.

Results

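Protamine 1, protamine 2 and protamine 3 (Prm1, Prm2, Prm3) and transition proteins 1 and 2 (Tnp1, Tnp2) were taken by gene symbol from the deposited expression table, and all 5 were found once each among its 23845 genes. The table held 62 libraries of mouse testis (15), caput epididymis (23) and cauda epididymis (24), each from the tissue of 1 adult male aged 8 to 14 weeks on a C57BL/6 background. Each value is a TPM (a transcript abundance, estimated reads divided by transcript length and scaled to the same total in every library). TPM keeps no sequencing depth, so the counting error behind each value is unknown.

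GF mice were wild type, germ free and raised in sterile isolators of a gnotobiotic colony (4 testis, 6 caput and 6 cauda libraries). F1 mice were the wild-type sons of GF fathers and SPF mothers bred in a conventional facility (3 caput, 3 cauda). Rag2-/- mice carry a knockout that removes T and B cells (2 caput, 3 cauda). These groups were set against 1 set of wild-type SPF mice, specific pathogen free with an ordinary commensal flora (3 testis, 4 caput, 4 cauda), so their comparisons share controls. Recolonized GF mice, derived from germ-free stock and bred under conventional housing in another laboratory (3 of each tissue), were set against a second set of SPF mice, SPF set 2 (5 of each tissue). GF cauda replicate 4 came from a cauda that the study describes as swollen and set aside, and it is left out of every comparison here, but its values are given.

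During the last steps of sperm formation, elongating spermatids replace most nucleosomal histones first with transition proteins and then with protamines, which package the sperm DNA tightly. The genes are transcribed in round spermatids and their mRNAs are stored until the nucleus elongates, when they are translated. Transcription and bulk translation then cease, and mature sperm carry only remnants of these mRNAs out of the testis. The epididymis makes none of the germ cells it holds: sperm enter at the caput, the first segment, and are stored in the cauda, the last.

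In the reference annotation of the mouse genome (GRCm38.p6), Tnp1 lay on chromosome 1 (chr1:73015074-73015899). The other 4 genes lay on the same minus strand of chromosome 16, in the order of transcription Prm1 (chr16:10796332-10796823), Prm2 (chr16:10791377-10792105), Prm3 (chr16:10790508-10790914) and Tnp2 (chr16:10787935-10788655), within 8889 bases. The gaps were 4226 bases between Prm1 and Prm2, 462 between Prm2 and Prm3 and 1852 between Prm3 and Tnp2. The coding sequences of 3 members are shown because they place the genes apart by the protein they encode, with every arginine codon in capitals (GENCODE M21 transcripts, start to stop codon, Prm3 to base 300 only).
Prm1: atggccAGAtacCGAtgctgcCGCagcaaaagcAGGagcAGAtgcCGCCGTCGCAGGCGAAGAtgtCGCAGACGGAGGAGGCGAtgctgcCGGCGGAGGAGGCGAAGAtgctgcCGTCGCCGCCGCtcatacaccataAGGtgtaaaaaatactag
Tnp1: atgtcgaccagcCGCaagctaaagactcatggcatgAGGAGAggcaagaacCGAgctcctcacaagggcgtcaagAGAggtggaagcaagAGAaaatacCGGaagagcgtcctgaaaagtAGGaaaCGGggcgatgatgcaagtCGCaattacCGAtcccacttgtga
Prm3: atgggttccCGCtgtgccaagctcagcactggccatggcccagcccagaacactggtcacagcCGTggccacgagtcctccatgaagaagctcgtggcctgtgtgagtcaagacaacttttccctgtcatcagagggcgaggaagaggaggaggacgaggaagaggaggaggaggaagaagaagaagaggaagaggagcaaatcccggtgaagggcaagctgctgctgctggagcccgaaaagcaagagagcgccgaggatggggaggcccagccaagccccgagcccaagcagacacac
Prm1, a sperm protamine, had 28 arginine codons among 51 (54.9%) and 9 cysteine codons, and Prm2, the other DNA-packing protamine, had 38 among 107 (35.5%). Tnp1 had 11 among 55 (20%) together with 10 lysine codons, and Tnp2 had 16 among 117 (13.7%) with 22 serine codons. Prm3 had only 2 arginine codons among 101 (1.98%) and 30 codons for acidic residues (29.7%), and it was the only member with 1 exon where the other 4 had 2. Arginine and lysine codons together were 8.91% of Prm3, against 23.1% to 60.8% of the other members.

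The 100 bases before each annotated start are shown to describe their letters, and no link between these sequences and the levels of the genes was tested. Capitals mark matches, on either strand, to TGANNTCA (letters of a cyclic AMP response element with any central pair), TATAAA or TATATA, motifs picked after the sequences had been seen; windows and RefSeq starts are of GRCm38.p6, all on the minus strand, at chr16:10796824-10796923 for Prm1, chr16:10792106-10792205 for Prm2, chr16:10790915-10791014 for Prm3, chr1:73015900-73015999 for Tnp1 and chr16:10788656-10788755 for Tnp2.
Prm1: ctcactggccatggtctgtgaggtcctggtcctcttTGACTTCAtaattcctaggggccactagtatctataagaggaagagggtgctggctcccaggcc
Prm2: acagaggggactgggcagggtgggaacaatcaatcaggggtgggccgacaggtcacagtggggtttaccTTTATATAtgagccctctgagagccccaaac
Prm3: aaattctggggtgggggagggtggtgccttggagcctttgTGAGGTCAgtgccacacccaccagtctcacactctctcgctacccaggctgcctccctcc
Tnp1: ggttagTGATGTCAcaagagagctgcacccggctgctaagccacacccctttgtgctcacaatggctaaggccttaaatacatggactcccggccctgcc
Tnp2: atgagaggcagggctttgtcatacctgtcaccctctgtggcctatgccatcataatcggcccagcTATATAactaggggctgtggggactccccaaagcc
TGANNTCA was present before Prm1, Prm3 and Tnp1, from 64, 60 and 94 bases before the start, in a search where 6.34% of 32851 upstream windows of the same length held it. The palindrome TGACGTCA was in none of the 5 windows and in 1.15% of all windows. TATATA stood before Prm2 and Tnp2, from 29 and 35 bases before the start (2.19% of all windows), and in Prm2 it overlapped a reverse-strand TATAAA match (5.56% of all windows). The 5 genes thus shared no single one of these motifs, and a match describes letters only.

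In the testis these genes were among the most abundant transcripts measured. Prm1 and Prm2 held ranks 1 and 2 of 23845 genes by mean TPM in all 4 groups, Tnp2 held rank 3, and Tnp1 rank 4 or 5, whereas Prm3 lay between ranks 63 and 198. Over 15 testis libraries Prm1 ranged from 17249 to 27641 TPM (median 22270), Prm2 from 16156 to 27133 (median 23165), Tnp2 from 11942 to 17886 (median 14553), Tnp1 from 7305 to 10414 (median 9409) and Prm3 from 627 to 1650 (median 1143). Together the 5 genes made up 5.37% to 8.42% of all TPM in a testis library, with a median of 6.94%.

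Both segments of the epididymis held far less of every member. In the caput (23 libraries) the medians were 103 TPM for Prm1, 186 for Prm2, 5.14 for Prm3, 25.0 for Tnp1 and 37 for Tnp2. In the cauda (23 libraries without the swollen one) they were 197 TPM for Prm1, 677 for Prm2, 14.6 for Prm3, 59.1 for Tnp1 and 104 for Tnp2. The sum of the 5 members was 0.0154% to 0.0629% of all TPM in the caput and 0.00289% to 0.235% in the cauda. The low end of the cauda range was set by SPF cauda replicates 4 (0.00289%) and 1 (0.0218%). Every other cauda library compared held 0.0623% or more. In bulk tissue, fewer cells of a type and less RNA per cell cannot be told apart.

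**Figure D1:**
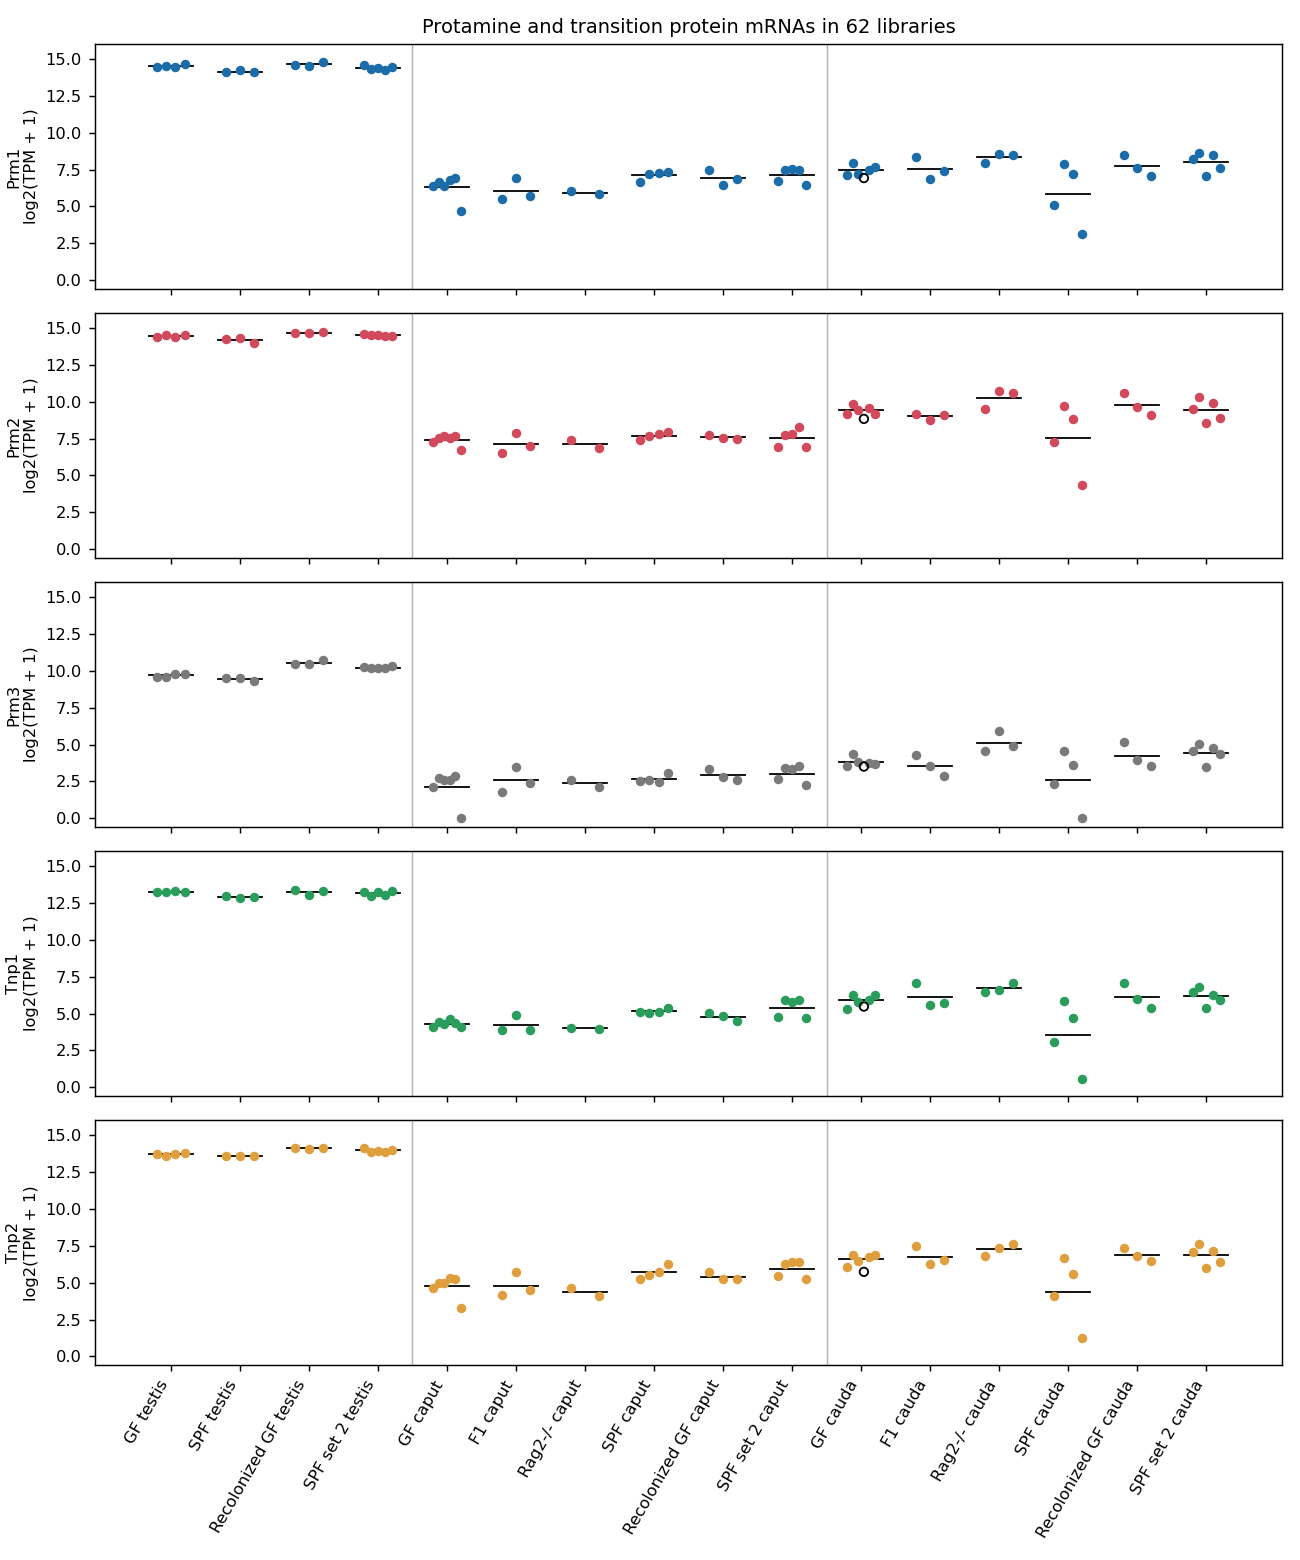
TPM of each of the 5 genes in each library on a log2 axis of TPM + 1, by tissue and group; each point is 1 library, bars are group means of the log2 values and the open circle is the swollen GF cauda library, left out of the mean. Testis libraries lie above all others for every gene, and SPF cauda reaches from 7.94 to 238 TPM for Prm1.

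Tissue marker lists set testis libraries apart from epididymal ones as labelled. Markers of caput epithelium such as Lcn8 and Gpx5 (7 genes) summed to 68155 to 100764 TPM in caput libraries, against 2.29 to 9.48 in testis libraries, and meiotic and earlier germ cell genes (11 genes, among them Sycp3 and Dazl) summed to 6.93 TPM at most in the epididymis, against 1096 to 1655 TPM in testis libraries. Between the segments, log2 fold changes in SPF cauda against SPF caput were -12.4 for Lcn8 and -8.66 for Gpx5. Adam7 of the same caput list was at -0.49. Rag2 itself was listed at 0 in all 47 epididymal libraries and so checked no label. T and B cell genes (7 genes) summed to 0 to 1.97 TPM in Rag2-/- cauda, against 3.56 to 4.23 in SPF cauda, but to 2.78 to 2.98 in Rag2-/- caput, against 2.62 to 4.23 in SPF caput. Between 13105 (Rag2-/- cauda replicate 2) and 18822 genes were above 0 per library, with 13747 in GF caput replicate 6. No 2 libraries held the same values.

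The fall between testis and epididymis was tested within each group of mice. All 5 genes were lower in caput than in testis and lower in cauda than in testis in each of the GF, SPF, Recolonized GF and SPF set 2 mice (limma on log2(TPM + 1), adjusted p of 0.05 or less and a fold of 1.5 or more), and no library of either segment reached any testis library. Such calls were common over all genes tested: in GF, Recolonized GF, SPF set 2 and SPF mice 51.4%, 44.1%, 47.2% and 52.9% were lower in caput and 47.5%, 46.1%, 48.4% and 51% in cauda. Groups without overlap and lower made up 53.5%, 47.9%, 50.9% and 57.3% of all genes in caput and 48.5%, 50%, 50.2% and 54.2% in cauda. For caput against testis the log2 fold changes ran from -6.47 (SE 0.14, Prm2 in SPF mice) to -8.95 (SE 0.33, Tnp2 in GF mice). For cauda against testis they ran from -4.89 (SE 0.32, Prm2 in Recolonized GF mice) to -9.33 (SE 1.09, Tnp1 in SPF mice).

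The size of the fall differed between members. In SPF set 2 mice, with 5 libraries a tissue, cauda against testis gave -5.08 (SE 0.26) for Prm2, -5.77 (SE 0.22) for Prm3, -6.38 (SE 0.25) for Prm1, -6.99 (SE 0.21) for Tnp1 and -7.11 (SE 0.24) for Tnp2. Prm2 fell least of the members in both segments and in all 4 groups of mice. Of the other lists, 30 of 30 late spermatid and sperm transcripts, among them Odf1 and Akap4 of the sperm tail, were lower in SPF set 2 cauda than testis with a median of -6.66. The 11 meiotic genes tested, 9 regulators of spermiogenic transcription such as Crem and Rfx2, and 10 of 12 genes of translational control such as Ybx2 were lower too, with medians of -5.31, -6.62 and -3.62, beside a median of -0.50 over all genes tested.

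Between the segments, the members were higher in cauda than in caput in most groups of mice. In GF mice Prm2 was at 576 to 901 TPM in cauda (median 677, n = 5), against 105 to 207 TPM in caput (median 186, n = 6), a log2 fold change of 2.02 (SE 0.18, adjusted p = 8.84e-07, limma). Tnp1, at 38.5 to 74.9 TPM in GF cauda and 15.9 to 23.7 TPM in GF caput, rose by 1.59 (SE 0.17, adjusted p = 3.88e-06). All 5 were higher in GF cauda, by 1.18 to 2.02, where 30.8% of all genes tested were higher by the same rule, and none overlapped between the segments, where 31% of all genes were separate and higher.

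Recolonized GF and SPF set 2 mice showed the same direction. In Recolonized GF mice Prm2 had 1563, 794 and 551 TPM in cauda, against 213, 186 and 176 TPM in caput, a log2 fold change of 2.20 (SE 0.35, adjusted p = 0.00132). There 4 of 5 members were called higher in cauda (17.8% of all genes were) and 4 did not overlap (28.7% of all genes), while Prm1 differed by 0.79 (SE 0.39, adjusted p = 0.122). Leaving out Recolonized GF caput replicate 2 or 3 left 2 members called. In SPF set 2 mice Prm2 had 741, 1243, 378, 944 and 478 TPM in cauda and 124, 211, 228, 307 and 119 TPM in caput, a change of 1.89 (SE 0.34, adjusted p = 0.000306). All 5 were called there (23.9% of all genes), from 0.75 for Tnp1 (adjusted p = 0.0432) to 1.89 for Prm2, with Tnp1 not called after median-of-ratios scaling, with a pseudocount of 0.1 or with no filter, and only Prm2 did not overlap (28.8% of all genes were separate and higher). Without caput replicate 1 or 5 or cauda replicate 2 there were 2 members called, and without cauda replicate 4 there were 3.

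SPF mice of the first set stood apart because their cauda libraries did not resemble each other. Prm2 had 157, 816, 462 and 19.1 TPM in SPF cauda, against 168, 204, 222 and 245 TPM in SPF caput, and Tnp1 had 7.59, 56.5, 24.4 and 0.48 TPM in SPF cauda, against 33.3, 31.5, 33.0 and 41.0 in SPF caput. Replicates 1 and 4 of SPF cauda lay below every SPF caput library for Prm2, and replicate 4 was the lowest of all 62 libraries for every member, tied at 0 with GF caput replicate 6 for Prm3. No member was called between SPF cauda and SPF caput (-1.61 to -0.02, adjusted p from 0.184 to 0.983, limma; 0 of 5 members and 7064 of 12425 genes at an unadjusted p under 0.05; 39.4% of all genes were called in either direction), and none was without overlap (47.2% of all genes). Without SPF cauda replicate 4 Prm2 was at 0.90 and Prm3 at 0.85, Prm1 was at -0.38, Tnp1 at -0.61 and Tnp2 at -0.27, and none was called. Without SPF cauda replicate 2, Tnp1 was called lower in cauda at -2.37 (SE 0.81, adjusted p = 0.0448).

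**Figure D2:**
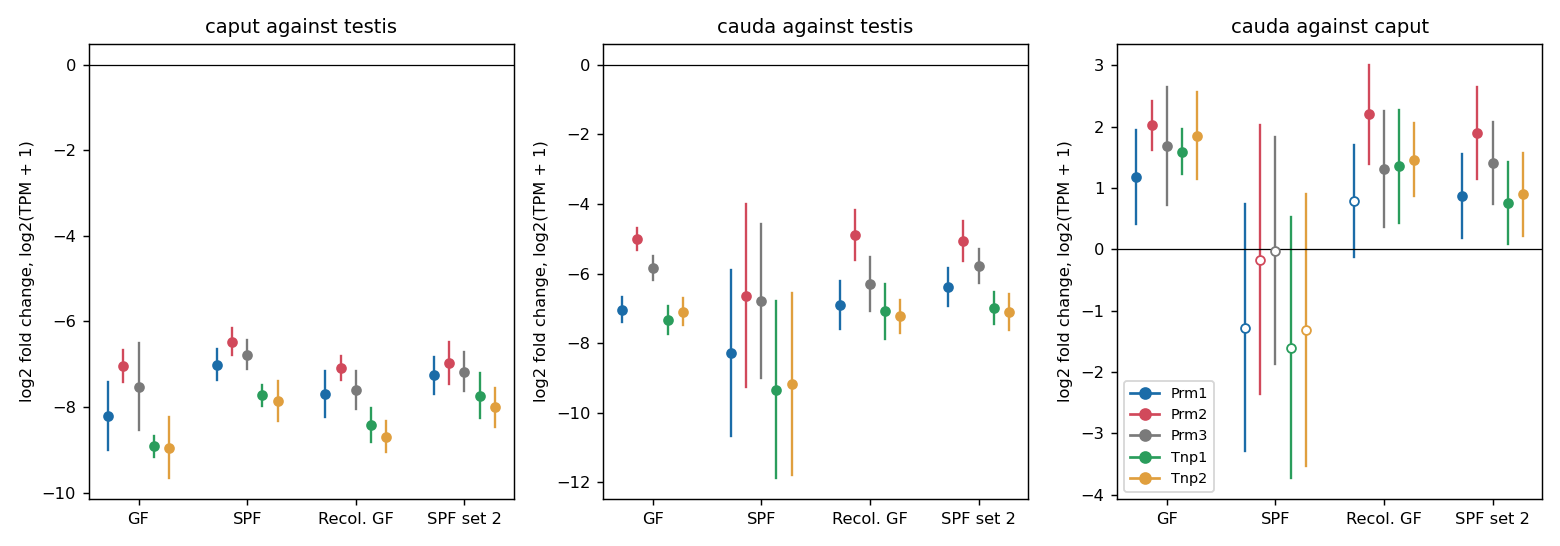
Log2 fold changes of the 5 genes between tissues within each group of mice, with 95% confidence intervals as whiskers and filled marks for called changes. All caput against testis and cauda against testis values lie between -4.89 and -9.33, and the cauda against caput values of SPF mice cross 0 with wide intervals.

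Many late spermatid and sperm transcripts were also called between the segments. Of those tested, 17 of 21 were higher and 2 lower in GF cauda than in GF caput, 16 of 23 higher and 2 lower in Recolonized GF mice, 13 of 24 higher and 2 lower in SPF set 2 mice, and 2 of 20 higher and 2 lower in SPF mice. Odf1, an outer dense fibre protein of the sperm tail, was at 3.43 in GF mice, where the lower ones were Spata3 at -2.28 and Dkkl1 at -1.45 (Dkkl1 named after its value was seen), and in SPF set 2 mice Odf1 was at 2.75 and Smcp, a protein of the sperm mitochondrial capsule, at 2.57, with both called. The medians of the tested list were 1.39, 1.38, 0.72 and -0.10 in GF, Recolonized GF, SPF set 2 and SPF mice, beside 0.22, -0.06, -0.03 and 0.07 over all genes.

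Ratios of members within a library do not depend on the scale of that library. Prm2 over Prm1 was close to 1 in the testis (0.916 to 1.15, geometric mean 1.03, 15 libraries), between 1.19 and 4.27 in the caput (1.77, 23 libraries) and between 1.77 and 4.64 in the cauda (3.38, 23 libraries). Tested within groups of mice, the Prm2 over Prm1 ratio was separate between the tissues in 11 of 12 comparisons, always higher in the more distal tissue. In SPF set 2 mice the geometric mean ratio was 2.71 in cauda, 1.33 in caput and 1.09 in testis. The 3 differences there each gave p = 0.00794 in a two-sided exact permutation test, the smallest that 5 against 5 libraries allow, and an adjusted p of 0.0357 over the 36 ratio tests run. In GF mice the ratio was 2.17 in caput (n = 6) and 3.88 in cauda (n = 5), against 0.952 in testis (n = 4), with adjusted p = 0.0357 for each by the exact test. The exception was GF cauda against GF caput, where GF caput replicate 6 at 4.27 lay within the cauda range of 2.80 to 4.64 (exact p = 0.0216, adjusted 0.0791). In the same 12 comparisons Tnp1 over Prm1 was separate in 5 and Tnp2 over Tnp1 in 2. The 3 comparisons in each group of mice share libraries, and the share over other gene pairs was not computed.

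**Figure D3:**
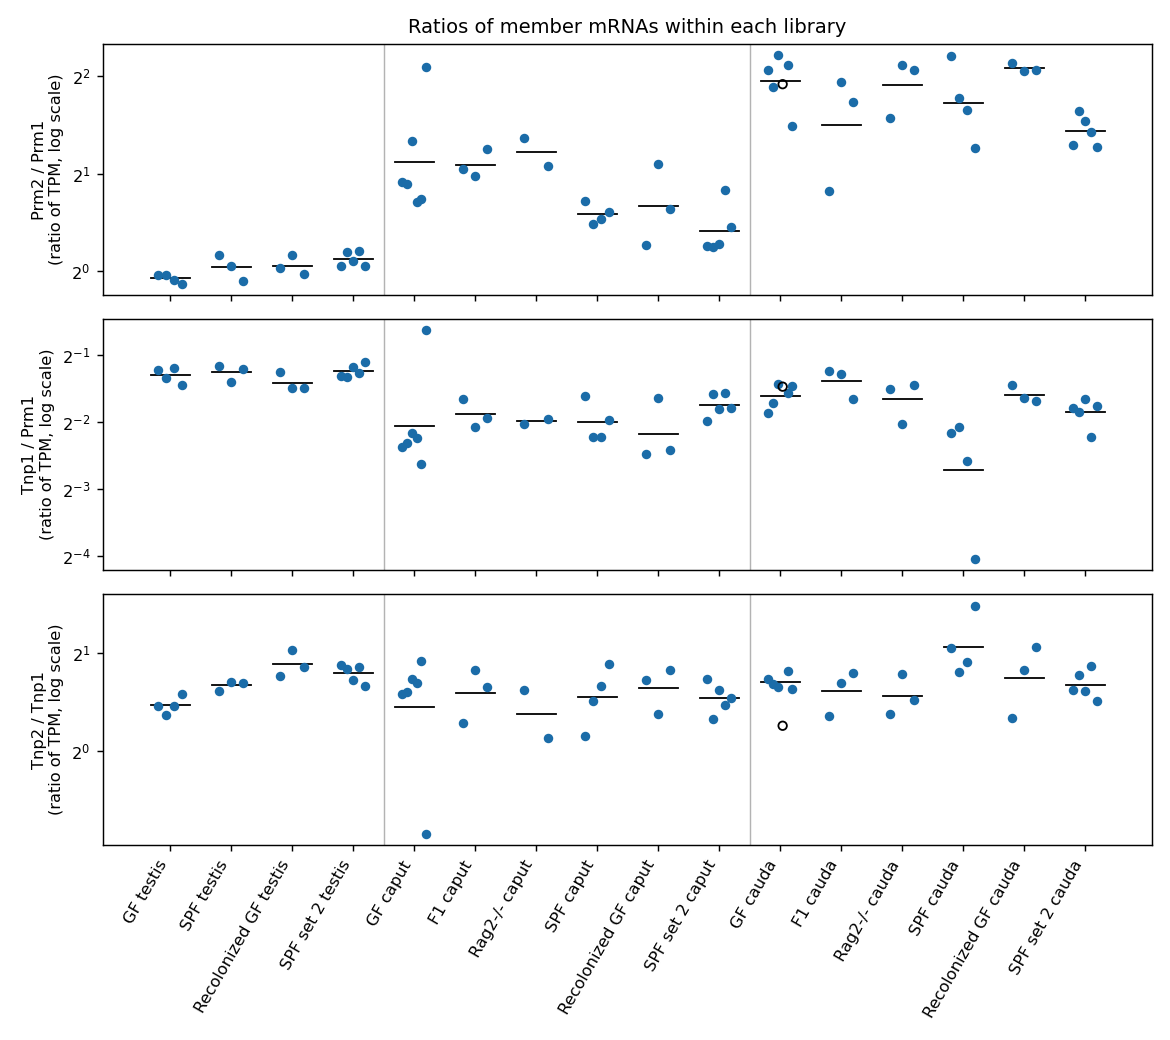
Ratio of Prm2 to Prm1, Tnp1 to Prm1 and Tnp2 to Tnp1 TPM in each library on a log axis, by tissue and group; bars are geometric means and the open circle is the swollen GF cauda library. Prm2 over Prm1 lies between 0.916 and 1.15 in the testis libraries and at 1.19 or above in the 46 caput and cauda libraries compared.

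The transition proteins changed less evenly relative to Prm1. Tnp1 over Prm1 had a geometric mean of 0.409 in the testis, 0.256 in the caput and 0.282 in the cauda, and its 2 tests past the threshold were both in SPF set 2 mice, where cauda (0.277) and caput (0.299) lay below testis (0.424) with adjusted p = 0.0357 each by the exact permutation test. Tnp2 over Tnp1 was 1.63 in the testis, 1.44 in the caput and 1.67 in the cauda. It was called in 1 comparison, GF cauda (1.63) against GF testis (1.38), at adjusted p = 0.0357 by the exact test. In all, 8 of 36 tests reached an adjusted p of 0.05, and 15 an unadjusted p of 0.05; with 3 against 3 Recolonized GF libraries no exact p can fall below 0.1, and with 4 SPF libraries against 3 or 4 none below 0.0286. Leaving out single libraries left 0 to 11 tests past the threshold, as group sizes set the smallest p.

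GF and SPF testes differed by little in these genes, but in 1 direction. Prm1 had 22270, 23808, 22551 and 25564 TPM in GF testis, against 17420, 19300 and 17249 TPM in SPF testis. Tnp1 had 9616, 9409, 9853 and 9387 TPM in GF testis, against 7794, 7305 and 7515 in SPF testis. Every GF testis lay above every SPF testis for both genes and also for Prm2 and Prm3, whereas Tnp2 (12154 to 14102 TPM in GF, 11942 to 12187 in SPF) overlapped. The groups did not overlap for 4 of 5 members, all higher in GF, where 2.16% of all genes tested were separate and higher.

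None of these differences passed the test. The log2 fold changes in GF testis were 0.39 (SE 0.09, adjusted p = 0.330) for Prm1, 0.34 (SE 0.08, adjusted p = 0.316) for Tnp1, 0.27 for Prm2, 0.25 for Prm3 and 0.14 for Tnp2 (adjusted p from 0.344 to 0.47, limma), all below a fold of 1.5. At an unadjusted p under 0.05 there were 4 of 5 members and 1917 of 14177 genes, and 0.0423% of the genes tested were called in either direction. The median of all genes was -0.10, and with libraries scaled by median of ratios it was -0.0044 and the members lay between 0.25 and 0.50, still not called. The sum of the members was 6.75% to 7.33% of all TPM in GF testis and 5.37% to 5.94% in SPF testis.

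The genes that act with protamines were not called in GF testis. Of 17 genes of the histone to protamine exchange none passed and 7 had an unadjusted p under 0.05, among them Hist1h1t, the testis-specific linker histone of spermatocytes, at 0.71 and Hist1h2ba, a testis-specific H2B, at 0.56 (adjusted p = 0.334 each). Of 9 spermiogenic transcription regulators and 12 translational regulators none passed, with 0 and 1 at an unadjusted p under 0.05. The 30 late spermatid and sperm transcripts, the nearest neighbours of the members in time, had a median of 0.06 with 21 positive and 9 negative, and 1 at an unadjusted p under 0.05. All 11 meiotic and earlier germ cell genes had negative values with a median of -0.39, and their part in the members' values was not tested. The 7 genes flanking the chromosome 16 cluster, such as Litaf and Socs1, all had negative values with a median of -0.14.

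In the caput the direction was the opposite. Tnp1 had 15.9 to 23.7 TPM in GF caput (median 18.9, n = 6), against 33.3, 31.5, 33.0 and 41.0 TPM in SPF caput, so that every GF library lay below every SPF library. It was called lower in GF caput at -0.85 (SE 0.12, adjusted p = 0.0139, limma), as were 0.178% of all genes tested, and it was the only member called. Its groups were also the only ones that did not overlap, where 2.48% of all genes were separate and lower. The call was lost with all caput groups in 1 fit (adjusted p = 0.0776) and without SPF caput replicate 4 (adjusted p = 0.0502), while the value stayed between -0.91 and -0.75 over 18 alternative settings.

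The other members had lower means in GF caput without passing the test. Prm1 had 24.5 to 120 TPM in GF caput (median 91.4), against 102, 146, 154 and 160 TPM in SPF caput, with a log2 fold change of -0.82 (SE 0.38, adjusted p = 0.301). Tnp2 had 8.80 to 38.3 TPM in GF caput (median 30.6) and 37, 45.0, 52.2 and 75.9 TPM in SPF caput, with -0.95 (SE 0.36, adjusted p = 0.221). Prm2 was at -0.30 and Prm3 at -0.49 (adjusted p = 0.423 and 0.622). GF caput replicate 6 was the lowest of its group for every member, at 24.5 TPM of Prm1 and 0 of Prm3. It had 13747 genes above 0, against 16699 to 17310 in the other libraries of its group. Without it Tnp1 stayed called at -0.80 (adjusted p = 0.0144, limma). Prm1 was then at -0.49, Tnp2 at -0.66, Prm2 at -0.16 and Prm3 at -0.06, none called.

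Other sperm transcripts had values of both signs in GF caput. Of 17 late spermatid and sperm transcripts tested, 2 were called and both were higher, Smcp at 1.02 (adjusted p = 0.0341) and Oaz3, an ornithine decarboxylase antizyme of spermatids, at 0.99 (adjusted p = 0.0409), 8 were positive and 9 negative, and the list had a median of -0.04 beside -0.03 over all genes. The sum of the list was 350 to 469 TPM in GF caput, against 288 to 360 TPM in SPF caput. The erythroid genes, which mark blood in a tissue, summed to 414 to 775 TPM in GF caput, against 148 to 266 TPM in SPF caput, with 1 of 4 called higher, and their part in the members' values was not tested.

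F1 and Rag2-/- caput, set against the same 4 SPF libraries, had negative log2 fold changes for all 5 members, although the mean TPM of Prm3 was 5.68 in F1 caput, against 5.36 in SPF caput. Tnp1 had 13.9, 28.6 and 13.6 TPM in F1 caput and 15.6 and 14.3 TPM in Rag2-/- caput, all below the lowest SPF library at 31.5. In Rag2-/- caput Tnp1 was called lower at -1.15 (SE 0.13, adjusted p = 0.0228; 0.109% of all genes were called lower), and 4 of 5 members did not overlap with SPF, all but Prm3, where 11.3% of all genes were separate and lower. Prm1 had 63.7 and 55.3 TPM in Rag2-/- caput, with -1.21 (SE 0.19, adjusted p = 0.0939), and Tnp2 24.1 and 15.8 TPM, with -1.33 (SE 0.28, adjusted p = 0.147). The Tnp1 call was lost with a pseudocount of 0.1 (adjusted p = 0.0561), with no filter on low values (0.0661) and with all groups in 1 fit (0.109), and when either Rag2-/- library or SPF caput replicate 1, 2 or 3 was left out. With 1 Rag2-/- library left, the spread came from SPF mice only and that library was assumed to vary like them. Without SPF caput replicate 1 Prm1 was called in its place.

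In F1 caput no member was called, with 2.72% of all genes called in either direction (limma), and 3 of 5 members had an unadjusted p under 0.05, as did 3478 of 12041 genes. Tnp1 was at -0.93 (SE 0.24, adjusted p = 0.0599) and was the only member whose groups did not overlap (6.11% of all genes were separate and lower), and Prm1 was at -1.08 (SE 0.33, adjusted p = 0.0798). F1 caput replicate 2 was the highest of its group for every member, with 120 TPM of Prm1, against 43.4 and 52.3 TPM in replicates 1 and 3. Without it Prm1 was called at -1.52 (adjusted p = 0.0431) and Tnp1 at -1.27 (adjusted p = 0.0206). With replicate 2 kept, Tnp1 was also called with the filter at 5 TPM, median-of-ratios scaling, limma-trend, array weights and all caput groups in 1 fit, so the call turned on the setting as well as on this library. Erythroid genes summed to 842 to 1372 TPM in F1 caput, against 148 to 266 TPM in SPF caput, with 4 of 4 called higher, as were 4 of 11 macrophage genes, and their part was not tested.

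**Figure D4:**
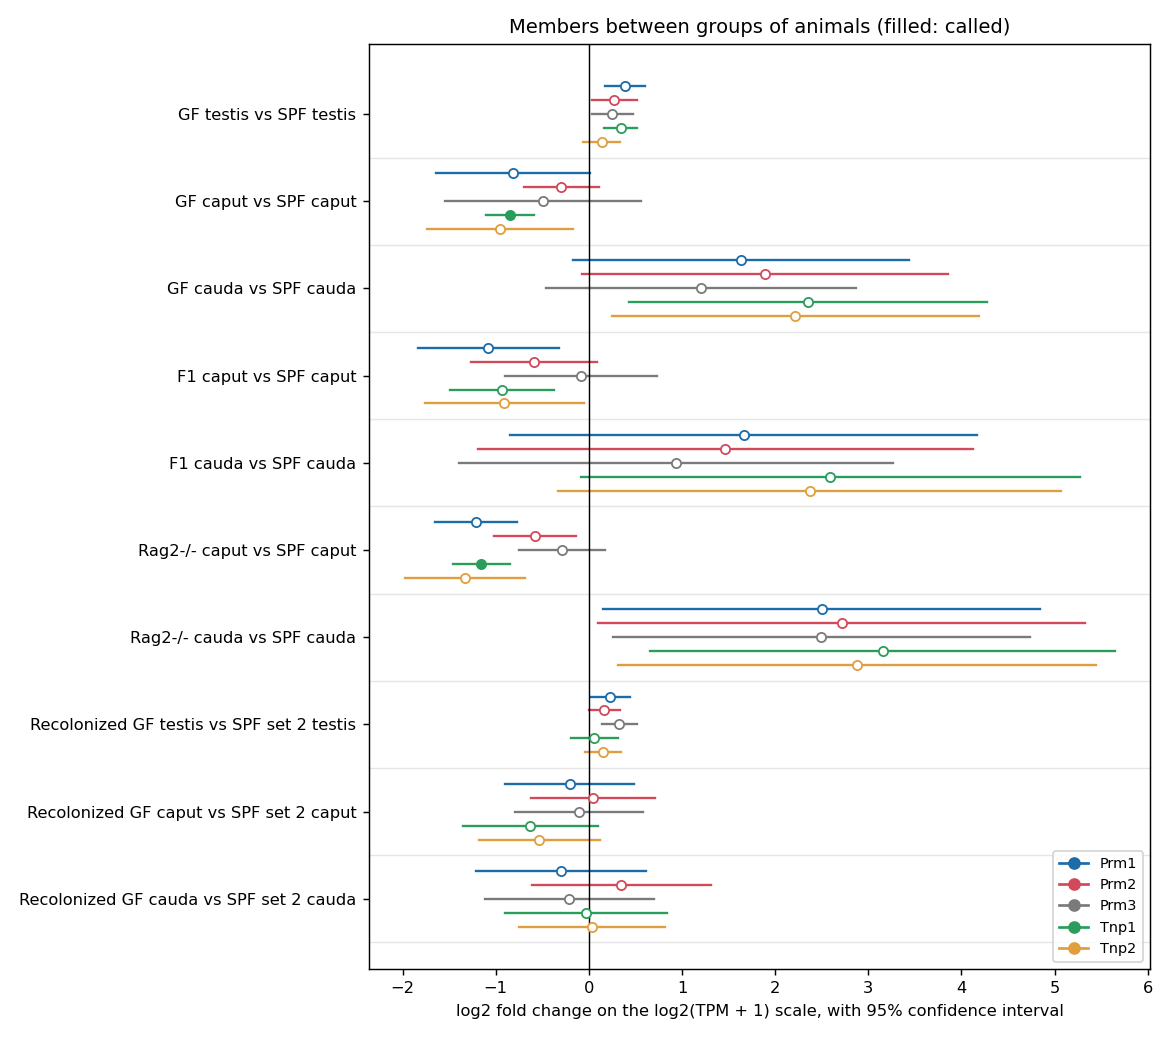
Log2 fold changes of the 5 genes between groups of mice in testis, caput and cauda, with 95% confidence intervals as whiskers and filled marks for called changes. Only Tnp1 in GF caput (-0.85) and in Rag2-/- caput (-1.15) is filled, and the cauda intervals against SPF are the widest.

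In the cauda the members had higher means in GF, F1 and Rag2-/- mice than in SPF mice of the same set, and none was called. SPF set 2 cauda had higher means than GF cauda for every member, such as 757 against 700 TPM for Prm2. For Tnp1 the means were 74.6 TPM in SPF set 2 cauda and 60.2 TPM in GF cauda. These sets were not tested against each other. Tnp1 had 38.5, 73.8, 54.4, 59.1 and 74.9 TPM in GF cauda (43.5 in the swollen one), 135, 46.9 and 52.5 TPM in F1 cauda and 87.1, 94.0 and 133 TPM in Rag2-/- cauda, against 7.59, 56.5, 24.4 and 0.48 TPM in SPF cauda. Tnp1 was at 2.35 (SE 0.86, adjusted p = 0.243) in GF, 2.59 (SE 1.15, adjusted p = 0.223) in F1 and 3.15 (SE 1.08, adjusted p = 0.374) in Rag2-/- cauda (limma). The spread was widest among the SPF libraries, where replicate 4 at 0.48 TPM was far below the other 3.

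The remaining members gave the same picture. Prm2 had 582, 901, 677, 762 and 576 TPM in GF cauda (454 in the swollen one), 562, 436 and 550 TPM in F1 cauda and 734, 1654 and 1503 TPM in Rag2-/- cauda, against 157, 816, 462 and 19.1 TPM in SPF cauda. GF and F1 ranges overlapped with SPF for every member, where 6.6% and 22% of all genes were separate and higher, and 3 of 5 members (Prm1, Tnp1 and Tnp2) did not overlap between Rag2-/- and SPF cauda, where 3.75% of all genes were separate and higher. Log2 fold changes ran from 1.21 to 2.35 in GF, from 0.93 to 2.59 in F1 and from 2.50 to 3.15 in Rag2-/- cauda, and 0.144%, 0.188% and 0.13% of all genes were called in either direction. At an unadjusted p under 0.05 there were 2 members in GF (1966 of 12493 genes), 0 in F1 (2999 of 12784 genes) and 5 in Rag2-/- cauda (1294 of 12293 genes). Rag2-/- cauda replicate 2, the highest of its group for Prm1, Prm2 and Prm3, had 13105 genes above 0, against 16630 and 17110 in the others. With any single library left out, 0 members were called in Rag2-/- cauda (limma). Without SPF cauda replicate 4 the GF values were 0.33 to 1.36, the F1 values 0.06 to 1.60 and the Rag2-/- values 1.60 to 2.16. Leaving out this 1 library lowered the log2 fold change of every member in all these comparisons.

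Sperm transcripts were low in the same SPF cauda libraries. The 30 late spermatid and sperm transcripts summed to 249, 892, 358 and 97.2 TPM in SPF cauda replicates 1 to 4, the same order as the members, against 1299 to 1851 TPM in GF cauda, 852 to 1356 TPM in F1 cauda and 1609 to 2678 TPM in Rag2-/- cauda. In GF cauda 23 of 23 tested were positive with a median of 1.26 (0.08 over all genes), none was called and 14 had an unadjusted p under 0.05, with Smcp at 3.98 (adjusted p = 0.164). In F1 cauda 24 of 24 were positive with a median of 1.14 and 11 at an unadjusted p under 0.05, and in Rag2-/- cauda 22 of 23 with a median of 1.83 and 17, none called in either (limma). The filter took the mean over both groups compared, so list genes low in SPF cauda could enter only through the other group. The counts of positive values and the list medians are therefore partly set by the filter. Among the exchange genes, Tssk6, a kinase of spermatids needed for histone removal, was called higher in GF cauda at 2.14 (adjusted p = 0.0348), 1 of 11 tested. Macrophage genes such as Cd68 and C1qa (11 genes) summed to 596 to 5612 TPM in GF cauda and to 18842 TPM in the swollen one, against 366 to 766 TPM in SPF cauda. In F1 cauda they summed to 1118 to 1338 TPM, with 11 of 11 positive (0.56 to 1.45) and none called (limma; 10 at an unadjusted p under 0.05), and in Rag2-/- cauda to 503 to 568 TPM. Erythroid genes summed to 54.1 to 254 TPM in GF cauda, 545 to 742 TPM in F1 cauda and 107 to 156 TPM in Rag2-/- cauda, against 41.3 to 142 TPM in SPF cauda, and in F1 cauda 2 of 4 were called higher, the globins Hbb-bs at 3.02 and Hbb-bt at 2.45. Of 3 genes tested in F1 cauda from the list of Sertoli cells, a testis cell type, Wt1 was called higher at 1.74 (adjusted p = 0.0496, limma). Sox9 was at 0.46 and Cldn11 at -0.35, neither called, and what these genes mark in the cauda was not tested. The part of sperm, macrophage or blood content in the members' values was not tested.

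**Figure D5:**
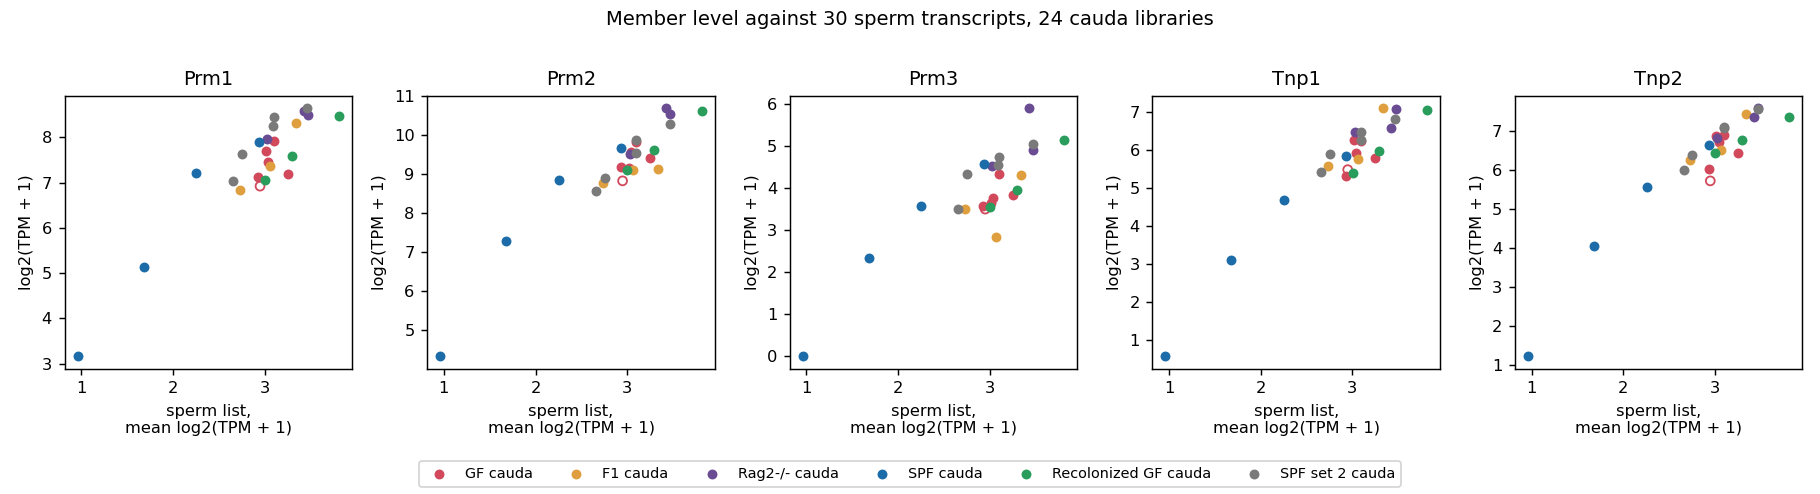
Log2(TPM + 1) of each of the 5 genes in each of 24 cauda libraries against the mean log2(TPM + 1) of 30 late spermatid and sperm transcripts in the same library. Points run along a rising band, with SPF cauda replicate 4 at the low end (list mean 0.96) and Recolonized GF cauda replicate 1 at the high end (3.81).

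The opposite signs of the GF values in caput and cauda were compared in 1 model. The GF effect in cauda minus that in caput was 3.20 (SE 0.89, adjusted p = 0.157) for Tnp1, 3.17 (SE 0.99, adjusted p = 0.210) for Tnp2, 2.45 for Prm1, 2.19 for Prm2 and 1.70 for Prm3. None was called (limma; 0.0881% of all genes were, in either direction), although 4 of 5 had an unadjusted p under 0.05, as did 1434 of 12481 genes. Without SPF cauda replicate 2 Tnp1 was called at 3.96 (adjusted p = 0.0101) and Tnp2 at 3.92 (adjusted p = 0.0314). Without SPF cauda replicate 4 none was called, with Tnp1 at 2.20 (adjusted p = 0.121), Tnp2 at 2.12, Prm1 at 1.56, Prm2 at 1.12 and Prm3 at 0.83.

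Recolonized GF mice had no member called in any tissue. In testis Prm3 had 1412, 1399 and 1650 TPM in Recolonized GF mice, against 1210, 1143, 1160, 1153 and 1247 TPM in SPF set 2 mice, with 0.33 (SE 0.09, adjusted p = 0.0601, limma). Prm2 and Prm3 did not overlap, 2 of 5 members (2.01% of all genes were separate and higher), and the fold changes of the members ran from 0.06 to 0.33 beside a median of -0.16 over all genes; scaled by median of ratios, they ran from 0.25 to 0.51. At an unadjusted p under 0.05 there were 2 of 5 members in testis (4362 of 14264 genes), 0 in caput (1023 of 12561 genes) and 0 in cauda (1988 of 12683 genes), and 1.28%, 0.175% and 0.323% of all genes were called in either direction. Caput values ran from -0.63 (Tnp1) to 0.05 (Prm2) and cauda values from -0.30 (Prm1) to 0.35 (Prm2), and the groups overlapped for all 5 genes in both segments (5.95% and 13.3% of all genes were separate).

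Other cell types moved in the same Recolonized GF libraries. In testis 5 of 8 Leydig cell genes were called lower, among them the enzymes of testosterone synthesis Hsd3b1 at -0.99, Hsd17b3 at -0.82 and Cyp17a1 at -0.67, as were 1 of 11 meiotic genes (Stra8, an inducer of meiosis, at -0.67) and 1 of 9 Sertoli cell genes, and their part in the members' values was not tested. In cauda Tssk6 was called higher at 1.62 (adjusted p = 0.0182), while none of 24 late spermatid and sperm transcripts was called (limma; 6 at an unadjusted p under 0.05) with a median of 0.23. The sum over the whole list was 1683 to 2909 TPM in Recolonized GF cauda, against 578 to 1239 TPM in SPF set 2 cauda, without overlap. The mean log2(TPM + 1) of the list overlapped, at 3.00 to 3.81 against 2.66 to 3.47, as did the sums of the members.

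Between the 2 sets of mice, levels in testis were not the same even among controls. Prm3 was at 1143 to 1247 TPM in SPF set 2 testis and at 627 to 722 TPM in SPF testis. By mean, Prm3 in testis ran in the order Recolonized GF (1487 TPM), SPF set 2 (1182), GF (819) and SPF (687), with no overlap between neighbours. For Prm1 the order was Recolonized GF (25185 TPM), GF (23548), SPF set 2 (21443) and SPF (17989), and only the last 2 did not overlap. Animals, time and library preparation cannot be told apart between the sets, so no test was made. In the epididymis, neighbours in the order overlapped for every member and segment except GF and F1 cauda for Prm2 (700 and 516 TPM). The control caudas also differed in mean, with overlapping ranges. Prm2 was at 757 TPM in SPF set 2 cauda and 363 TPM in SPF cauda, and Tnp1 at 74.6 and 22.2 TPM.

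Across libraries the 5 genes went together, with the highest correlations in the cauda, where their levels also ranged most widely. Pearson correlations of log2(TPM + 1) between pairs of members lay between 0.908 and 0.990 over 24 cauda libraries, the swollen one included. They lay between 0.641 and 0.958 over 23 caput libraries and between 0.495 and 0.951 over 15 testes. The cauda correlations included SPF cauda replicates 4 and 1, the lowest cauda libraries for every member, and were not computed without them. All these correlations describe libraries that share tissue, groups and composition, and carry no test. With the mean of the 30 sperm transcripts the members correlated at 0.864 to 0.955 in cauda, 0.688 to 0.796 in caput and 0.267 (Prm1) to 0.836 (Tnp2) in testis. Prm1 was 2.20 above the list mean on the log2 scale in SPF cauda replicate 4. In the other SPF cauda libraries it was 3.45 to 4.97 above. The list mean in replicate 4 was 0.96, near the floor of the log2(TPM + 1) scale, where distances shrink. A change of Prm1 relative to the list cannot be read from these distances.

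The genes most like each member were ranked by correlation in cauda and in testis. Cauda held 24 libraries with the swollen one (12844 genes with a mean of 1 TPM or more), and testis held 15 (14313 genes). The low SPF cauda replicates 4 and 1 were included here too. In cauda the nearest was Tnp2 to Prm1 (0.977), Tnp2 and Tnp1 to each other (0.990), and 1700027A15Rik to both Prm2 (0.980) and Prm3 (0.962). Spem1, a spermatid maturation gene, was the nearest non-member to Prm1 (0.964), and Lelp1 followed 1700027A15Rik and Fam71f2 for Prm2 (0.977). In testis the nearest were Tsacc for Prm1 (0.888), Tssk3 for Prm2 (0.923), Dynll1 for Prm3 (0.961), Ppp1r2-ps7 for Tnp1 (0.813) and Msl3l2 for Tnp2 (0.954), with Prm3 second for Tnp2 (0.951).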

How the data were processed

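Testis, caput and cauda RNA was measured in 62 mouse libraries made by oligo(dT) capture with a stranded mRNA kit. Per the labels and the study's methods, the authors quantified paired-end reads with RSEM on mm10 and deposited 1 table of TPM values, which are scaled to the same total in every library and keep no depth. The authors tested raw counts with DESeq2; those counts were not used here, so limma 3.58.1 (R 4.3.3) was run on log2(TPM + 1) of genes with a mean of 1 TPM or more, and a gene was called at a Benjamini-Hochberg adjusted p of 0.05 or less and a fold of 1.5 or more. Folds are on the log2(TPM + 1) scale, which understates the change of low genes. Each fit held the groups compared, without GF cauda replicate 4, and adjusted over all genes tested. The filter took the mean over the compared libraries, so a gene low in one group could enter only through the other. Intervals are 95%. The code was tested on simulated data.

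The members and all gene lists were chosen with earlier results of these data known. Genes named with a value are mostly the members and up to 4 called genes of each list with the largest changes. Where none was called, the 2 largest are named in most cases. The 3 genes most like each member by correlation are named too. Genes named only to describe a list, such as Cd68 and C1qa of the macrophages, are examples and not the largest changes. Ratios were tested by two-sided exact permutation (scipy 1.17.1), adjusted over 36 tests. Each library is 1 animal's tissue; whether tissues with the same number come from 1 animal is not given in the sources used here, so p-values of tissue comparisons treat them as independent. Sequences came from RefSeq on GRCm38.p6 and, for coding sequences, GENCODE M21; 5 of 5 members matched. Alternatives were a pseudocount of 0.1, no filter and a filter at 5 TPM, median-of-ratios scaling, limma-trend, array weights, a replicate block, all groups of a tissue in 1 fit, and leaving out each library. No column of the table was left unassigned (0). Tables were handled with Python 3.11.15, pandas 2.3.3 and numpy 2.4.6, and figures drawn with matplotlib 3.10.9.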

Additional observations from a re-analysis of the deposited data

Results flagged for a closer look

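Of 64 sets of values from groups of 4 to 10 libraries, 5 held a library farther from the rest than Dixon's 95% limit, where chance gives about 1 in 20. GF caput replicate 6 gave 3 of them, with the highest Prm2 over Prm1 ratio of its group (4.27), the highest Tnp1 over Prm1 ratio (0.648) and the lowest Tnp2 over Tnp1 ratio (0.554). It was also the lowest GF caput library for Prm1 and Tnp2, whereas its Tnp1 was 15.89 TPM and that of replicate 1 was 15.91 TPM. Replicate 6 had 13747 genes above 0, the fewest of its group. GF cauda replicate 2 had the highest Prm3 of its group at 19.2 TPM. The swollen GF cauda replicate 4 had the lowest Tnp2 over Tnp1 ratio at 1.20.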

How the results depend on the processing

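Of 873 member fold changes refitted under another setting, 843 kept their direction and their side of the threshold and 8 changed sign; leaving out 1 library at a time, 928 of 980 did so and 23 changed sign. The cause of the changes was not tested. With all groups of a tissue in 1 fit the number of members called was 0 in GF caput, 1 in F1 caput, 0 in Rag2-/- caput, 2 in F1 cauda and 1 in Rag2-/- cauda. F1 caput had 1 called with the filter at 5 TPM, with median-of-ratios scaling and with array weights, and 2 with limma-trend. Rag2-/- caput had 0 with a pseudocount of 0.1 and with no filter, and 2 with limma-trend, and the GF effect in cauda minus caput had 1 with array weights. The filter at 5 TPM gave no value for Prm3 in GF and Rag2-/- caput. Leaving out single libraries gave 0 to 1 members called in GF caput, 0 to 2 in F1 caput, 0 to 1 in Rag2-/- caput, 0 to 2 for the GF effect in cauda minus caput, 0 to 1 for SPF cauda against caput, 2 to 5 for SPF set 2 and 2 to 5 for Recolonized GF cauda against caput, and 0 to 11 ratio tests past the threshold in place of 8.

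Same-numbered libraries did not pair: over 22 comparisons the correlation of their deviations ran from -0.53 to 0.27 and in 0 was every pair over 0.1. With the replicate number as a block 2 members were called in GF caput and 2 in Rag2-/- caput, Prm3 in F1 caput was 0.048 and Tnp2 in Recolonized GF cauda was -0.021. Array weights gave 0.017 for Prm3 in F1 caput, -0.23 for Prm3 in F1 cauda, -0.14 for Tnp1 in Recolonized GF testis, -0.12 for Tnp2 in Recolonized GF cauda, and 0.91 for Prm2 and 0.80 for Prm3 in SPF cauda against caput. With single libraries left out, log2 fold changes that changed sign ran from -0.54 to 0.30 for Prm3 in F1 caput and from -0.0083 to 0.16 for Tnp1 in Recolonized GF testis. In Recolonized GF caput they ran from -0.48 to 0.026 for Prm1, -0.11 to 0.23 for Prm2 and -0.32 to 0.045 for Prm3. In Recolonized GF cauda they ran from -0.68 to 0.030 for Prm1, -0.063 to 0.69 for Prm2, -0.68 to 0.12 for Prm3, -0.48 to 0.34 for Tnp1 and -0.22 to 0.24 for Tnp2. For SPF cauda against caput they ran from -0.88 to 0.90 for Prm2 and -0.67 to 0.85 for Prm3. The log2 Tnp2 over Tnp1 difference ran from -0.23 to 0.012 for SPF caput against testis, -0.11 to 0.24 for GF caput against testis, -0.0017 to 0.35 for GF cauda against caput, -0.060 to 0.30 for Recolonized GF cauda against caput and -0.31 to 0.060 for Recolonized GF cauda against testis. TPM keeps no depth, so the precision of low values such as Prm3 in caput cannot be given.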
